A study of Homo sapiens with 6 samples.

Results

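HEK293T cells that overexpressed the missense allele M67V of ATF6 were compared with HEK293T cells that overexpressed ATF6 labelled wild type (WT), to ask which genes separate 2 alleles that both activate transcription. HEK293T is a human embryonic kidney line that takes up DNA readily. The comparison rests on 2 of the 6 libraries of the series, chosen by their labelled genotype, with 1 library per group. The other 4 libraries came from cells with the alleles labelled N267star, ex2-3del and ex8-14del and from a non-transfected control, and they serve here only to place the M67V and WT levels. Transfection was with Lipofectamine 2000, while the control is called non-transfected in its label and empty vector in the protocol. The sources used here give no promoter, plasmid dose or time after transfection. In a second deposited count table the library numbered like WT carries a number in place of WT, and whether the WT construct was full length is not given in the sources used here. Endogenous ATF6 was present in all groups, and its reads were counted with those of the introduced allele.

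ATF6 is a transcription factor held in the membrane of the endoplasmic reticulum (ER). When unfolded proteins accumulate there, ATF6 moves to the Golgi, proteases release its cytosolic part, and this part enters the nucleus and switches on genes of ER protein folding and degradation. The amino-terminal stretch that M67V alters lies in that cytosolic part, upstream of the DNA-binding domain. Loss of ATF6 function in people is linked to achromatopsia, a loss of cone vision.

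With 1 library a side, no test between conditions could be made and no p-value is given. Levels are given as CPM, the count of a gene scaled to the size of its library. Differences are log2 ratios of M67V over WT, so that a positive value means higher in M67V. Intervals in brackets are exact 95% intervals from the 2 counts. They cover counting error only and say how far 2 libraries differ. The M67V library held 16089632 counts, the WT library 16023926, and the other 4 between 16257490 and 16813314. All 6 genes taken as HEK293T markers had counts in every library, from 1.77 CPM for PAX2 in ex2-3del to 611 CPM for VIM in N267star. Of 12 markers of blood, liver, endothelium, fibroblasts and photoreceptors, 9 stayed under 1 CPM in all 6 libraries, and PTPRC and CD3E, which define blood cells, were at 0 in M67V. COL1A1, at 32.4 CPM in M67V and 32.2 CPM in WT, made up most of the 12 markers' summed level of 35.3 CPM in M67V and 35.5 CPM in WT. All 37 mitochondrially encoded genes were listed at 0, so they gave no check of RNA quality.

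The codon that M67V changes is shown to place the allele. In the GENCODE annotation of GRCh38 it is an ATG at chr1:161781951-161781953, in exon 3 of ATF6. The coding sequence around it (chr1:161781921-161781983, plus strand) is given with the codon in capitals.
ATF6: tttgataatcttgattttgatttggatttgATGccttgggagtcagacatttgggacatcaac

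The promoters of 5 genes are shown as examples of ER chaperones and a sterol enzyme that lay on opposite sides of equality between M67V and WT. They run from 250 bases before to 50 bases after each gene's start (RefSeq, GRCh38.p14). HSPA5 is at chr9:125241294-125241593 (minus strand), HSP90B1 at chr12:103930160-103930459 (plus strand), HYOU1 at chr11:119057156-119057455 (minus strand), SDF2L1 at chr22:21642052-21642351 (plus strand) and HMGCS1 at chr5:43313363-43313662 (minus strand). Capitals mark matches, on either strand, to 3 motifs of the ER stress response. These are the ER stress element (CCAAT and CCACG with 9 bases between them), the related element ERSE-II (ATTGG and CCACG with 1 base between them) and the unfolded protein response element TGACGTGG, which in HYOU1 overlaps an ERSE-II match.
HSPA5: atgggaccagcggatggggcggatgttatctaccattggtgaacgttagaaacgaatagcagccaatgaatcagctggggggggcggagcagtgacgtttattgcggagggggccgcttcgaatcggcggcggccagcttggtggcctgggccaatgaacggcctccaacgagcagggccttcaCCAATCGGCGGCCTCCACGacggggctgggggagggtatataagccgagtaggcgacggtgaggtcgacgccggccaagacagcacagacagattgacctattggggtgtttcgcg
HSP90B1: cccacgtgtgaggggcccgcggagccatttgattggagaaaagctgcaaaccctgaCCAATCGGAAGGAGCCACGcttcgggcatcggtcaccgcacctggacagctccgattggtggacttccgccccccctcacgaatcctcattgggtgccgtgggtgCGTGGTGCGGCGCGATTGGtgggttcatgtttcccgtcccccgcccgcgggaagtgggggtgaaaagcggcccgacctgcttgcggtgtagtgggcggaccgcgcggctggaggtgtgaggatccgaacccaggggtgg
HYOU1: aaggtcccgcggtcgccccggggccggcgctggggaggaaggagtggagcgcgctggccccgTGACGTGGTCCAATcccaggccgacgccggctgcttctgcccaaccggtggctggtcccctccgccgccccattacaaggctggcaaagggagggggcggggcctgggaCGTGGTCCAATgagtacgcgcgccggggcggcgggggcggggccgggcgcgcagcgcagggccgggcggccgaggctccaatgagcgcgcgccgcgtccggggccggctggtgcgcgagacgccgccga
SDF2L1: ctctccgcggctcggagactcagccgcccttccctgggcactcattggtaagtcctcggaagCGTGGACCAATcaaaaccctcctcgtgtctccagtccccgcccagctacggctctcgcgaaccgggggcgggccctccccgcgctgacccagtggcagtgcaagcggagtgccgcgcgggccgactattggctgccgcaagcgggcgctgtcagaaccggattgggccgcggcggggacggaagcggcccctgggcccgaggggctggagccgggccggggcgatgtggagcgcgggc
HMGCS1: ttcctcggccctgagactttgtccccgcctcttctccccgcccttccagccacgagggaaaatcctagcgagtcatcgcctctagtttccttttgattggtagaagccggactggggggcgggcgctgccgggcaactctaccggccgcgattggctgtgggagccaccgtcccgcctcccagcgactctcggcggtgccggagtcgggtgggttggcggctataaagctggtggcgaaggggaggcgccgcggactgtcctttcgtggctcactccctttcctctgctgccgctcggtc

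The letters of the first motif were found in 0.0806% of 27305 promoters of this length, those of the second in 0.0549% and those of the third in 0.795%. HSPA5 and HSP90B1, which stood lower in M67V than in WT, and HYOU1 and SDF2L1, which stood higher, all held at least 1 of them, while the window of HMGCS1 held none of these letters. The window of the ER gene PDIA4, which stood higher in M67V, was also searched and held none. Those of HERPUD1 and CALR, which stood lower, each held a match.

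ATF6 itself was the first gene to separate the libraries. It stood at 1493 CPM in M67V and 1148 CPM in WT, against 713 CPM in N267star, 1349 CPM in ex2-3del, 2410 CPM in ex8-14del and 85.1 CPM in non-transfected cells. Both alleles were thus far above the non-transfected level, and M67V above WT, with a log2 ratio of 0.38 (0.35 to 0.41), or 0.43 (0.41 to 0.46) after the adjustment for GC content described below. ATF6 counts hold introduced and endogenous transcripts together, so the ratio does not give the amount of either protein. CPM are not scaled for transcript length, and whether both constructs had the same length is not given in the sources used here. In bulk RNA, more transfected cells and more RNA per cell cannot be told apart. HSPA5, the ER chaperone BiP and a target of ATF6, differed in the opposite direction. HSPA5 stood at 3375 CPM in M67V and 3634 CPM in WT, against 694 CPM in N267star, 599.7 CPM in ex2-3del, 741 CPM in ex8-14del and 559 CPM in non-transfected cells. The log2 ratio was -0.11 (-0.12 to -0.09), which is small beside the gap of both libraries to the other 4.

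**Figure D1:**
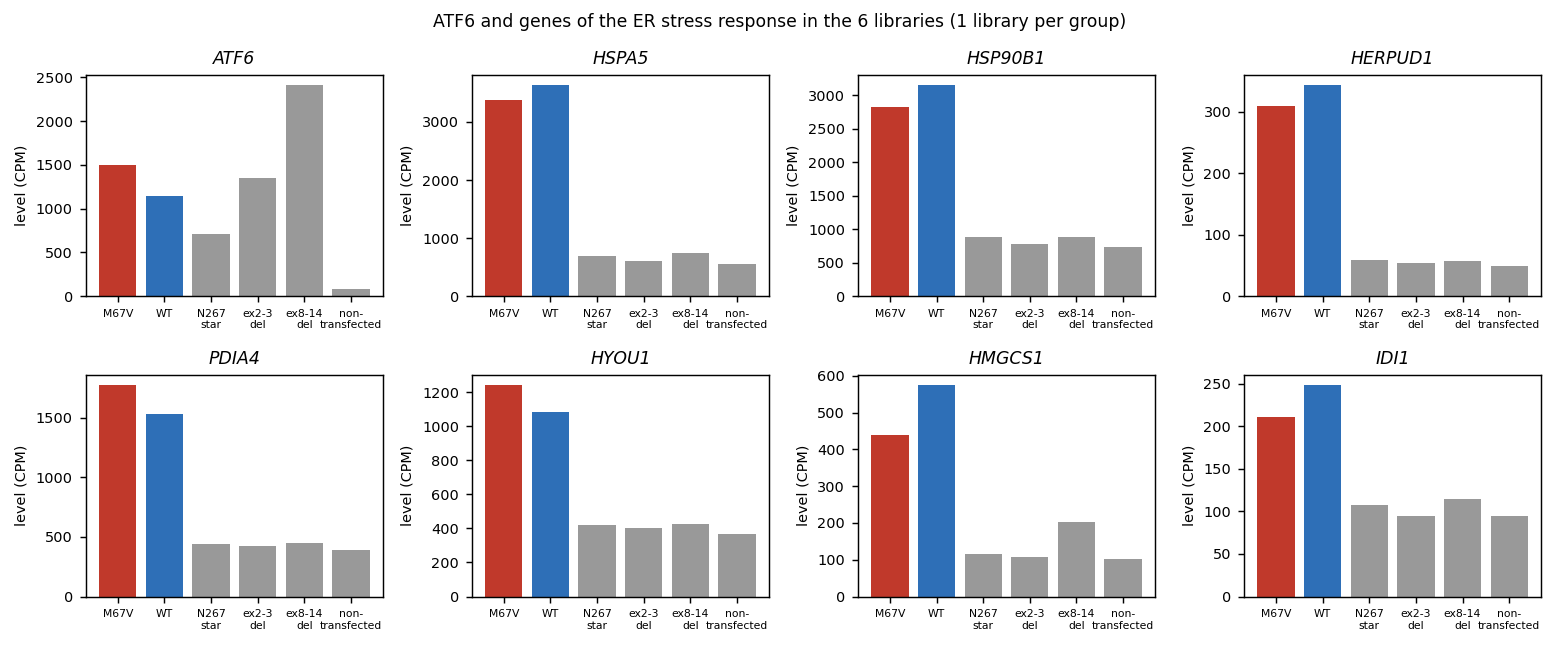
Levels (CPM, y axes from 0) of ATF6 and 7 genes of the ER stress and sterol pathways, 1 bar per library with M67V in red, WT in blue and the other 4 libraries in grey. HSPA5 reached 3375 CPM in M67V and 3634 CPM in WT, while its grey bars reached at most 741 CPM.

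PDIA4, a protein disulfide isomerase of the ER, stood at 1770 CPM in M67V and 1530 CPM in WT, against 442 CPM in N267star, 420 CPM in ex2-3del, 450 CPM in ex8-14del and 393 CPM in non-transfected cells. Its log2 ratio was 0.21 (0.19 to 0.24). HMGCS1, which makes HMG-CoA for the mevalonate pathway, stood at 439.5 CPM in M67V and 574 CPM in WT, against 116 CPM in N267star, 107 CPM in ex2-3del, 204 CPM in ex8-14del and 103 CPM in non-transfected cells. Its log2 ratio of -0.38 (-0.43 to -0.34) was the lowest of the 20 listed genes that were raised in both libraries. HSPA5, PDIA4 and HMGCS1 were high in both libraries. They were taken in advance as markers of the libraries with active ATF6, so their high level is not a result. Between M67V and WT they differed beyond counting error, PDIA4 in one direction and the other 2 genes in the opposite one. Of all genes with at least 5 CPM in M67V or WT, 13.6% were higher and 11.0% lower with an interval that excluded equality. These shares are not matched for level.

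Few genes separated M67V from WT by much. Of 11301 genes with at least 5 CPM in M67V or WT, 7 were at least 2-fold higher in M67V with an interval above equality (0.0619%) and 8 at least 2-fold lower (0.0708%). The median log2 ratio of all these genes was 0.01, and 96.7% of them lay within 0.32 of 0 on the log2 scale, which is used below as a smaller threshold. At 1.5-fold, 20 genes were higher (0.177%) and 19 lower (0.168%). Beyond the threshold of 0.32, 162 were higher (1.43%) and 109 lower (0.965%). Counted in the same way, the 6 pairs among the other 4 libraries differed in 10 to 20 genes at 2-fold and in 207 to 399 genes beyond 0.32. The 15 and 271 genes between M67V and WT fall inside both ranges. M67V differed from the other 4 libraries in 66 to 91 genes at 2-fold, and these comparisons share the M67V library. ER folding genes were not among the 15. The 15 genes were instead mostly low, with no more than 85.2 CPM of the 2 libraries. The annotation places 12 of them over another expressed gene. Among the 8911 genes that overlap none, 2 were higher (0.0224%) and 1 lower (0.0112%).

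**Figure D2:**
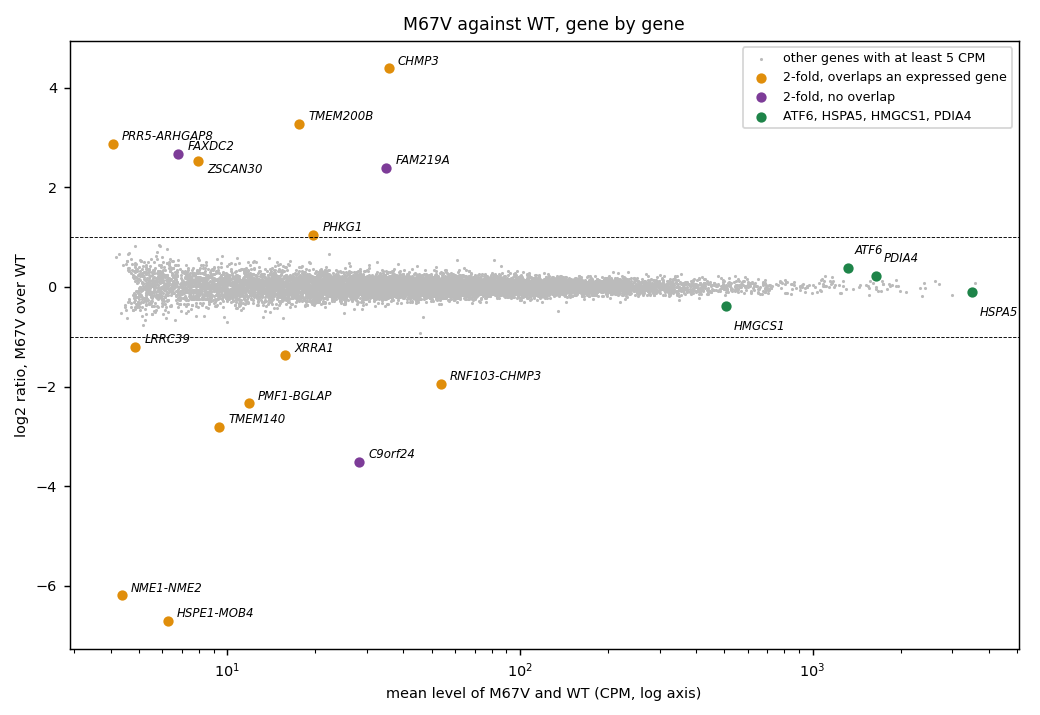
Log2 ratio of M67V over WT (y axis) against the mean level of the 2 libraries (x axis, CPM, log scale) for genes with at least 5 CPM in either library. Dashed lines mark 2-fold. The 15 genes beyond 2-fold are low to moderate in level, and 12 of them (orange) overlap another expressed gene.

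For most of these 15 genes an overlapping or neighbouring gene moved the opposite way. CHMP3, a subunit of the ESCRT-III membrane-remodelling complex, stood at 68.3 CPM in M67V and 3.15 CPM in WT, against 3.61 CPM in N267star, 3.07 CPM in ex2-3del, 72.1 CPM in ex8-14del and 3.60 CPM in non-transfected cells. M67V and ex8-14del were thus high and the other 4 libraries low. The read-through gene RNF103-CHMP3, which overlaps CHMP3, stood at 22.1 CPM in M67V and 85.2 CPM in WT. Their sum was 90.4 CPM in M67V and 88.3 CPM in WT, a log2 ratio of 0.03 (-0.07 to 0.14). The reads of the 2 genes together did not differ beyond counting error, although each gene alone did by 2-fold or more.

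FAM219A and C9orf24 are neighbours that showed the same arrangement. FAM219A stood at 58.8 CPM in M67V and 11.1 CPM in WT, against 12.2 CPM in N267star, 37.3 CPM in ex2-3del, 12.8 CPM in ex8-14del and 13.5 CPM in non-transfected cells. C9orf24 stood at 4.48 CPM in M67V and 52.1 CPM in WT, against 47.7 CPM in N267star, 21.8 CPM in ex2-3del, 47.7 CPM in ex8-14del and 47.1 CPM in non-transfected cells. M67V was at the extreme for both genes and ex2-3del lay between it and the other libraries. The sum of the pair was 63.3 CPM in M67V and 63.1 CPM in WT (log2 ratio 0.003, -0.12 to 0.13).

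TMEM200B, a transmembrane protein gene that overlaps EPB41, the gene of a membrane skeleton protein, stood at 32.1 CPM in M67V and 3.21 CPM in WT. The other 4 libraries held between 3.08 and 3.48 CPM, so M67V alone was high. EPB41 was lower in M67V, at 215 CPM against 245 CPM in WT, and the sum of both genes was 247 CPM in M67V and 248 CPM in WT (-0.01, -0.07 to 0.06). For TMEM140, a transmembrane protein gene that overlaps C7orf49, WT alone stood apart. It had 2.27 CPM in M67V and 16.6 CPM in WT, against 2.07 to 3.37 CPM in the other 4 libraries, and its sum with C7orf49 was 120 CPM in M67V and 114 CPM in WT (0.08, -0.02 to 0.17).

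PHKG1, a catalytic subunit of phosphorylase kinase, stood at 26.6 CPM in M67V and 12.8 CPM in WT, against 0.977 CPM in non-transfected cells and 26.5 to 29.7 CPM in the cells with the other 3 alleles. Its sum with the overlapping sulfatase-modifying factor gene SUMF2 was 87.6 CPM in M67V and 88.6 CPM in WT (-0.02, -0.13 to 0.09). PMF1-BGLAP, a read-through gene of the kinetochore gene PMF1, stood at 3.85 CPM in M67V and 19.9 CPM in WT, and its sum with PMF1 was 77.2 CPM in M67V and 77.5 CPM in WT (-0.005, -0.12 to 0.11). XRRA1, which overlaps the ubiquitin ligase gene RNF169, stood at 8.77 CPM in M67V and 22.9 CPM in WT, and that pair summed to 67.5 CPM in M67V and 67.4 CPM in WT (0.003, -0.12 to 0.13). In all, 9 of the 15 genes had an overlapping or neighbouring gene that differed in the opposite direction beyond its own interval, with a summed level whose interval held equality. These include both members of CHMP3 with RNF103-CHMP3 and of FAM219A with C9orf24. A gene was counted if any of its partners gave such a sum. RNF103-CHMP3 summed with RNF103 stood at -1.08, and PMF1-BGLAP with BGLAP at -1.59. The share of all genes with such a partner was not computed. How the reads of such genes were assigned was not tested, because the counting program is not given in the sources used here.

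**Figure D3:**
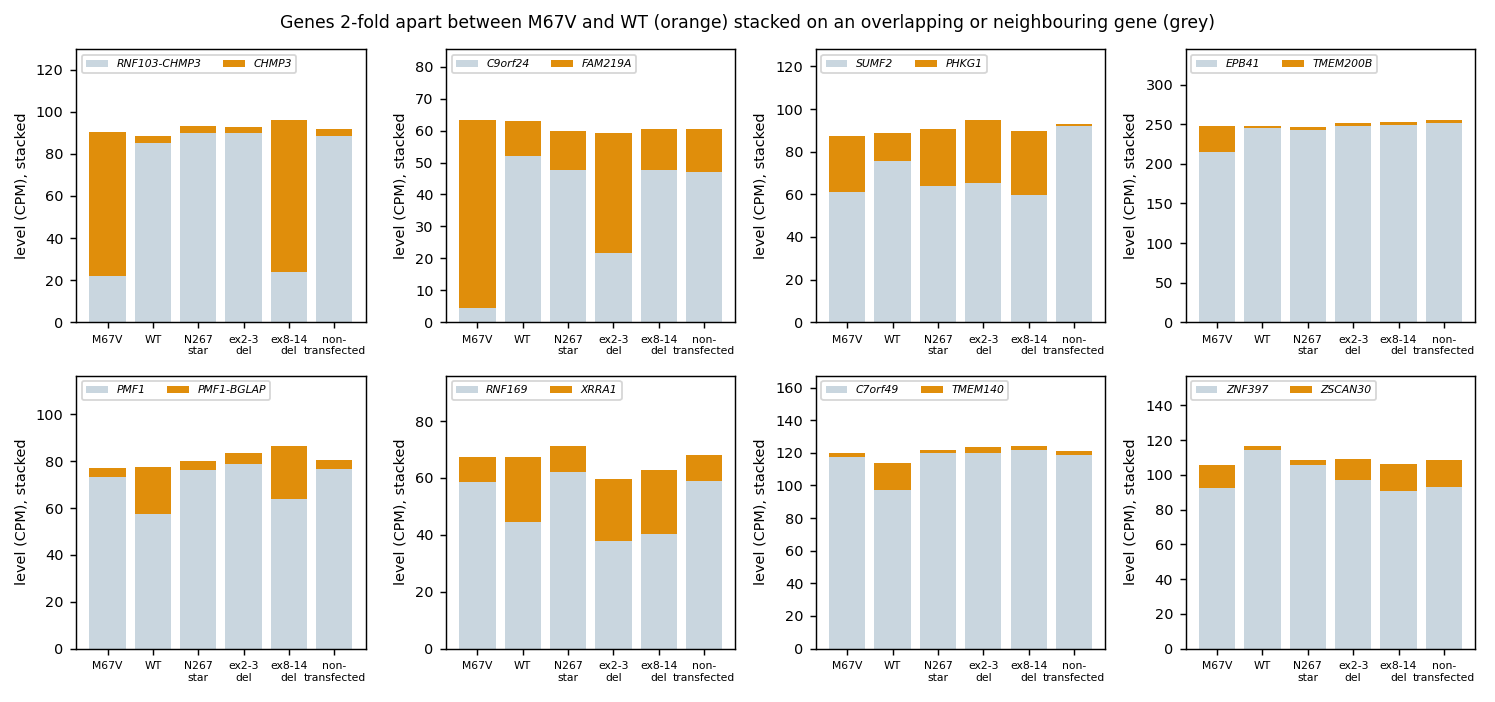
Levels (CPM, y axes from 0) in the 6 libraries of 8 genes that were 2-fold apart between M67V and WT (orange), each stacked on an overlapping or neighbouring gene (grey). CHMP3 and RNF103-CHMP3 together reached 90.4 CPM in M67V and 88.3 CPM in WT although the orange share was 68.3 CPM in M67V and 3.15 CPM in WT.

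The remaining 6 genes had no partner that met both conditions. Some of their sums still held equality. One was FAXDC2 with its abundant neighbour LARP1 (0.02, -0.02 to 0.06), and LARP1 itself, at 567 CPM in WT, did not differ beyond its interval. FAXDC2, a gene of the fatty acid hydroxylase superfamily, overlaps no expressed gene. It stood at 11.9 CPM in M67V and 1.76 CPM in WT, against 2.25 CPM in N267star, 30.4 CPM in ex2-3del, 28.3 CPM in ex8-14del and 19.4 CPM in non-transfected cells. WT and N267star were thus the low pair, M67V was intermediate, and the ratio of M67V to WT was 2.67 on the log2 scale (2.17 to 3.38). ZSCAN30, a zinc finger gene that overlaps ZNF397, had the same low pair, with 13.7 CPM in M67V and 2.27 CPM in WT, against 2.96 CPM in N267star and 12.2 CPM in ex2-3del, 15.9 CPM in ex8-14del and 15.6 CPM in non-transfected cells.

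The read-through gene HSPE1-MOB4 had no count in M67V, where 3 counts would be 0.189 CPM, and 12.5 CPM in WT. With 3 counts as the floor, M67V was 66.2-fold lower, and the interval of the log2 ratio reached up to -5.74. The other 4 libraries held 10.3 to 12.3 CPM. NME1-NME2, a read-through gene of 2 nucleoside diphosphate kinases, had no count in M67V and 8.75 CPM in WT. It was 46.2-fold lower in M67V by the same floor, with an interval that reached up to -5.21. NME1-NME2 had no count in ex2-3del and ex8-14del either. PRR5-ARHGAP8, another read-through gene, stood at 7.26 CPM in M67V and 0.881 CPM in WT. LRRC39 stood at 2.90 CPM in M67V, on 46 counts, and at 6.80 CPM in WT, on 108 counts. Of these 6 genes, FAXDC2 was the one without an annotated overlap.

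Differences smaller than 2-fold were related to the base composition of the transcript. Across 8741 genes with at least 20 CPM in M67V or WT, the log2 ratio of M67V over WT had a Spearman correlation of 0.635 with the GC content of the transcript, taken from GENCODE. The correlation is across genes, which are not independent replicates, and is given as a description. The 2290 genes whose transcripts have less than 42% GC had a median log2 ratio of -0.08, and the 1737 genes with at least 58% GC had a median of 0.10. The correlation with transcript length was -0.265. WT was the library that stood apart together with N267star. Compared with that same WT library, the GC correlation was 0.483 for ex8-14del, 0.353 for ex2-3del and -0.031 for N267star, and it was -0.590 for WT over non-transfected cells. M67V over non-transfected cells gave -0.108. The origin of this trend was not tested.

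**Figure D4:**
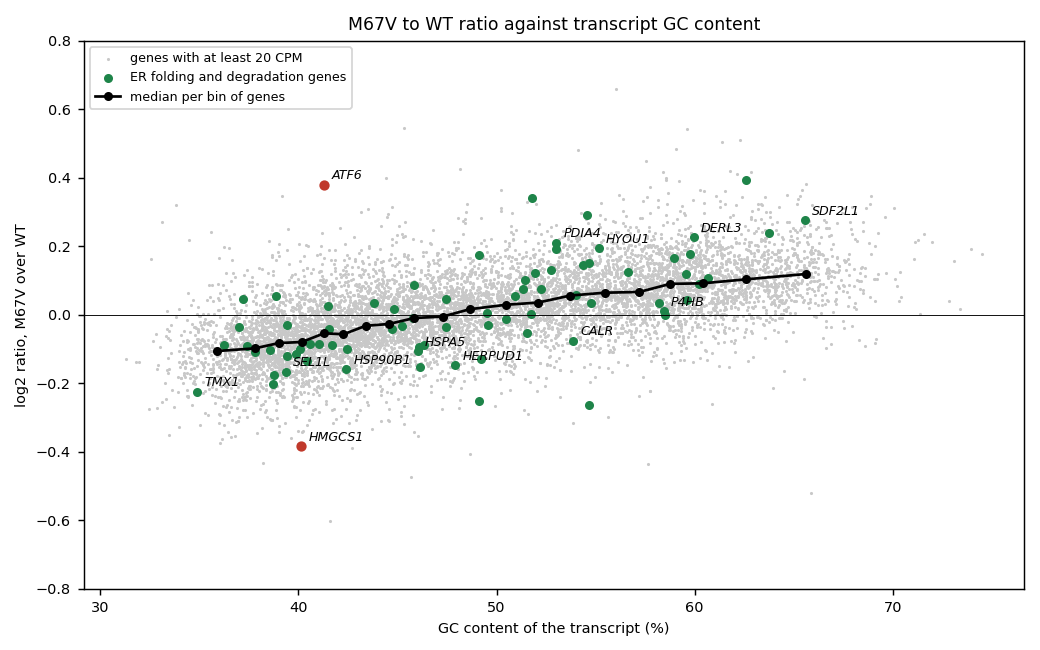
Log2 ratio of M67V over WT (y axis) against the GC content of the transcript (x axis, %) for 8741 genes with at least 20 CPM in either library, with ER folding and degradation genes in green, ATF6 and HMGCS1 in red, and the median of each of 20 bins of genes as a black line. The line rises with GC content, and most green points lie near it. The axis leaves out 8 genes beyond 0.8 on the log2 scale.

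For this reason most ratios of genes named below and the list counts are followed by GC-adjusted values, where GC-adjusted means after subtracting the median log2 ratio of genes of like GC content. This step was chosen after the trend had been seen. After it, 99 genes were more than 0.32 higher in M67V (0.883% of 11210) and 90 lower (0.803%). The spread of the ratios over genes, as a robust standard deviation on the log2 scale, was 0.113 as measured and 0.0803 GC-adjusted. The GC-adjusted spread of the other 14 pairs of libraries lay between 0.0763 and 0.115, and the lowest of these was N267star against ex2-3del. Adjusted in the same way, the other 14 pairs differed in 166 to 555 genes beyond 0.32, against 189 genes for M67V and WT.

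The ratios of ER folding and degradation genes were also related to GC content. Of 75 listed genes of ER chaperones, disulfide isomerases and oxidases, and ER-associated degradation with at least 1 CPM in M67V or WT, 19 were higher in M67V with an interval above equality, against 12.2% of all 13214 genes at that level. The same list had 17 lower genes, against 9.79% of all genes. The shares over all genes, here and for the lists below, are not matched for level. Intervals narrow as counts rise, so abundant genes are called at smaller ratios. The higher ones had a median transcript GC content of 54.7% and the lower ones 40.1%. Across the 75 genes the Spearman correlation of the ratio with GC content was 0.685. GC-adjusted, 14 were higher (6.61% of all genes were) and 10 lower (6.42%), of which 12 and 9 had been so before. PDIA5 alone of the 75 differed by more than 0.32 beyond counting error, at 23.2 CPM in M67V and 18.3 CPM in WT, where 1.73% of all genes were higher and 1.2% lower by as much. GC-adjusted, PDIA5 was at 0.31 (0.08 to 0.53), short of that threshold, and 0 of the 75 passed it. Over all 16 gene lists, 0 members were called at 1.5-fold with an interval that excluded equality, against 0.628% of all genes higher and 0.499% lower. NUPR1, DUSP5 and RYR2 were more than 1.5-fold higher in M67V, on 16, 35 and 37 counts in M67V and 7, 20 and 23 counts in WT, and their intervals held equality.

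Among the ER chaperones, the higher genes were HYOU1, SDF2L1, FKBP2, MANF, CRELD1, CRELD2 and FKBP10. HYOU1, the ER chaperone GRP170 that exchanges nucleotide on BiP, stood at 1240 CPM in M67V and 1084 CPM in WT, against 417 CPM in N267star, 403 CPM in ex2-3del, 426 CPM in ex8-14del and 368 CPM in non-transfected cells. Its log2 ratio was 0.19 (0.16 to 0.22) and 0.13 (0.10 to 0.16) GC-adjusted. SDF2L1, which assists BiP, stood at 87.6 CPM in M67V and 72.4 CPM in WT, against 29.1 to 42.6 CPM in the other 4 libraries. Its log2 ratio was 0.28 (0.16 to 0.39) and 0.16 (0.04 to 0.27) GC-adjusted. MANF, a secreted ER stress protein, was at 0.14 (0.09 to 0.20) as measured and at 0.09 (0.04 to 0.14) adjusted. CRELD1, CRELD2, FKBP2 and FKBP10 were higher as measured and held equality within their adjusted intervals, so that 3 of the 7 were still called.

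HSP90B1, the ER chaperone GRP94, was lower. It stood at 2818 CPM in M67V and 3149 CPM in WT, against 876 CPM in N267star, 781 CPM in ex2-3del, 880 CPM in ex8-14del and 732 CPM in non-transfected cells. Its log2 ratio was -0.16 (-0.18 to -0.14) and -0.11 (-0.12 to -0.09) GC-adjusted. For HSPA5 the adjusted value was -0.10 (-0.11 to -0.08), close to the measured one. CALR, the lectin chaperone calreticulin, was at -0.08 (-0.10 to -0.05) as measured and at -0.13 (-0.16 to -0.11) adjusted, so it lay further from equality after adjustment. The co-chaperone DNAJC3 was at -0.12 (-0.19 to -0.04), and its adjusted interval held equality.

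The whole list of 24 measured ER chaperones had a median log2 ratio of -0.02, with members from -0.265 to 0.28, and 7 were higher and 9 lower beyond counting error, against 12.2% and 9.79% of all genes. GC-adjusted, 3 were higher and 4 lower, against 6.61% and 6.42%. These 2 pairs of shares over all genes apply to the counts of every list that follows. All genes at that level had a median of 0.01. The 22 disulfide isomerases and oxidases had a median of 0.02, with 4 higher and 2 lower as measured and 5 higher and 3 lower GC-adjusted. PDIA4 led the abundant ones, with an adjusted ratio of 0.16 (0.14 to 0.19). TMX1, a membrane-bound thioredoxin, stood at -0.23 (-0.33 to -0.13) and at -0.12 (-0.22 to -0.02) adjusted. ERO1A, the oxidase that recharges the isomerases, stood at -0.20 (-0.30 to -0.11) and at -0.12 (-0.21 to -0.03) adjusted. P4HB, another abundant isomerase, stood at 1969 CPM in M67V and 1955 CPM in WT (0.01, -0.01 to 0.03) and at -0.07 (-0.10 to -0.05) after GC adjustment.

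**Figure D5:**
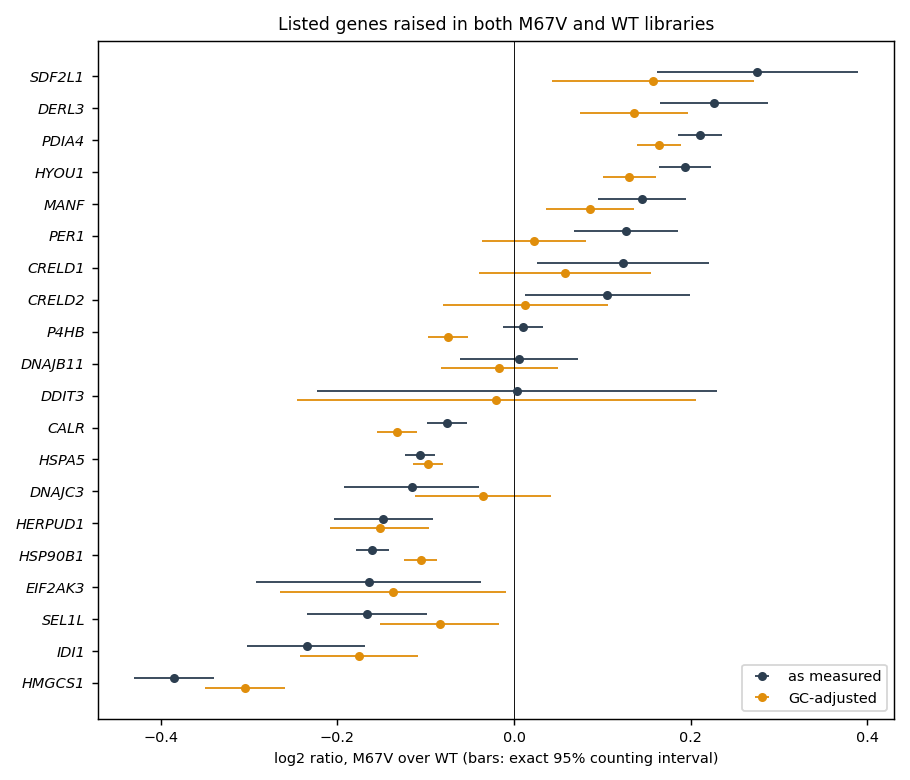
Log2 ratio of M67V over WT (x axis) with exact 95% counting intervals for the 20 listed genes that were at least 2-fold raised in M67V and WT together over the other 4 libraries, as measured (dark) and GC-adjusted (orange). PDIA4, HYOU1, SDF2L1, DERL3 and MANF lie above 0 in both, HSPA5, HSP90B1, HERPUD1, CALR and HMGCS1 below 0 in both, and P4HB lies below 0 in the adjusted values alone.

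In ER-associated degradation, 8 of 29 genes were higher and 6 lower, with a median of -0.01, against 12.2% and 9.79% of all genes. GC-adjusted, 6 were higher and 3 lower. HERPUD1, a membrane protein that assembles the degradation complex, stood at 310 CPM in M67V and 343 CPM in WT, against 58.2 CPM in N267star, 54.4 CPM in ex2-3del, 58.1 CPM in ex8-14del and 48.5 CPM in non-transfected cells. Its ratio was -0.15 (-0.20 to -0.09), and -0.15 (-0.21 to -0.10) adjusted. SEL1L, the adaptor of the ubiquitin ligase HRD1, was at -0.17 (-0.23 to -0.10) as measured and at -0.08 (-0.15 to -0.02) adjusted. DERL3, a derlin, stood at 295 CPM in M67V and 252 CPM in WT, against 22.7 to 29.9 CPM in the other 4 libraries, with a ratio of 0.23 (0.17 to 0.29) and 0.14 (0.07 to 0.20) adjusted. Because DERL3 lies over SMARCB1, an expressed gene, its level is uncertain. EDEM2, which trims mannose from misfolded glycoproteins, was at 0.29 (0.08 to 0.50) and at 0.23 (0.02 to 0.44) adjusted.

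Sterol genes lay on both sides of equality. Of 26 genes of sterol synthesis and uptake, 7 were higher and 8 lower, with a median of 0.04, against 12.2% and 9.79% of all genes. GC-adjusted, 2 were higher and 6 lower, with a median of 0.01. HMGCS1 alone differed by more than 0.32, and its adjusted ratio of -0.30 (-0.35 to -0.26) was still the lowest of the 26. IDI1, the isomerase of isopentenyl diphosphate, stood at 211 CPM in M67V and 248 CPM in WT, against 108 CPM in N267star, 94.3 CPM in ex2-3del, 114 CPM in ex8-14del and 94.8 CPM in non-transfected cells. Its ratio was -0.23 (-0.30 to -0.17) and -0.18 (-0.24 to -0.11) adjusted, and it overlaps the expressed gene WDR37. MVK, a kinase that acts between these enzymes, stood at 27.4 CPM in M67V and 22.3 CPM in WT, against 24.5 to 31.8 CPM in the other 4 libraries (0.30, 0.09 to 0.50). Its adjusted ratio was 0.21, with an interval that barely excluded equality (0.0008 to 0.41), and MVK overlaps the expressed gene MMAB. PMVK, the kinase after it, stood at 26.75 CPM in M67V and 22.8 CPM in WT, against 24.9 to 26.95 CPM in the other 4 libraries (0.23, 0.03 to 0.44). Its adjusted interval held equality (0.14, -0.07 to 0.35). For both kinases WT lay below all other libraries.

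Of 16 genes of ATF6 and its regulators, 3 were higher and 1 lower, as measured and GC-adjusted, with a median of 0.01. ATF6 itself, the introduced gene, was among the 3 higher ones. CREB3, a related membrane-bound factor, was higher at 0.23 (0.08 to 0.38) and at 0.16 (0.01 to 0.32) adjusted. CREB3 overlaps GBA2. XBP1, a transcription factor activated by IRE1, stood at 255 CPM in M67V and 236 CPM in WT (0.11, 0.04 to 0.17), with an adjusted ratio of 0.08 (0.02 to 0.15). EIF2AK3, which encodes the stress sensor PERK, stood at 59.8 CPM in M67V and 67.04 CPM in WT (-0.16, -0.29 to -0.04), with an adjusted ratio of -0.14 (-0.26 to -0.01). DDIT3, which encodes the transcription factor CHOP, had 325 counts in each of the 2 libraries (0.003, -0.22 to 0.23). Of 36 genes that act in the PERK, ATF4 or amino acid responses, 10 were higher and 3 lower, 0 of them by more than 0.32, against 12.2% and 9.79% of all genes. GC-adjusted, the balance turned, with 2 higher and 5 lower, against 6.61% and 6.42%. The median was 0.05 as measured and 0.004 GC-adjusted. SLC3A2, a subunit of amino acid transporters, was at 0.19 (0.12 to 0.27) as measured and at 0.13 (0.05 to 0.20) adjusted. CTH, which makes cysteine, was at -0.19 (-0.33 to -0.04) as measured and at -0.15 (-0.30 to -0.01) adjusted.

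Secretory traffic genes had 3 of 38 higher and 12 lower, against 12.2% and 9.79% of all genes, with a median of -0.03. GC-adjusted, 2 were higher and 2 lower, against 6.61% and 6.42%, with a median of -0.01. Their transcripts had a median GC content of 44.0%, against 48.95% over all genes. SEC61G, a subunit of the protein-conducting channel, was lower at -0.27 (-0.42 to -0.13), and its adjusted value was -0.28. N-glycan genes had 8 of 36 higher and 3 lower, and 7 higher and 2 lower GC-adjusted. DPM3, which anchors the dolichol phosphate mannose synthase, was at 0.34 (0.10 to 0.59) and at 0.25 (0.0031 to 0.50) adjusted. Cytosolic heat shock genes had 4 of 18 higher and 9 lower, with a median of -0.03. GC-adjusted, 0 were higher and 6 lower, with a median of -0.04. Lysosomal genes had 3 of 30 higher and 3 lower, and 2 higher and 2 lower GC-adjusted. NEU1, the lysosomal sialidase, stood at 135 CPM in M67V and 150 CPM in WT, against 75.0 CPM in N267star, 78.2 CPM in ex2-3del, 213 CPM in ex8-14del and 58.7 CPM in non-transfected cells. Its ratio was -0.15 (-0.24 to -0.07) and -0.22 (-0.30 to -0.13) adjusted.

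The remaining 6 lists are read against the same 12.2% and 9.79% of all genes as measured and 6.61% and 6.42% GC-adjusted. Immediate-early genes had 2 of 18 higher and 0 lower, and 1 higher and 0 lower GC-adjusted. Interferon response genes had 4 of 19 higher and 1 lower, and 0 higher and 0 lower GC-adjusted. Cell death and p53 genes had 2 of 18 higher and 1 lower, and 0 higher and 1 lower GC-adjusted. Circadian clock genes had 1 of 18 higher, which was PER1 at 0.13 (0.07 to 0.19), and 1 lower, which was NR1D2 at -0.13 (-0.24 to -0.02). The adjusted intervals of both held equality, PER1 at 0.02 (-0.04 to 0.08) and NR1D2 at -0.04 (-0.15 to 0.07), and the list then had 0 higher and 1 lower. ER calcium genes had 4 of 19 higher and 2 lower, and 2 higher and 1 lower GC-adjusted. Cell cycle genes had 8 of 26 higher and 3 lower, and 5 higher and 4 lower GC-adjusted. Over these 6 lists the measured medians lay between -0.01 and 0.05, and 0 of their members differed by more than 0.32 beyond counting error.

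The response to active ATF6 was also taken gene by gene, without the lists. Apart from ATF6, 66 genes had a mean level over M67V and WT (on the log scale) at least 2-fold above that of the other 4 libraries, with both libraries above each of the 4. This choice treats M67V and WT alike, and membership is not a result. A gene raised in M67V alone or in WT alone cannot enter. The choice thus limits how far the ratios and summed levels of these genes can differ between M67V and WT. The 66 genes summed to 18530 CPM in M67V and 18880 CPM in WT, against 6036 CPM in N267star, 5690 CPM in ex2-3del, 6782 CPM in ex8-14del and 5417 CPM in non-transfected cells. The excess over the mean of the 4 other libraries, which also served for the choice, was in M67V 97.3% of that in WT. The median log2 ratio of M67V over WT was 0.01, as it was over all genes with at least 5 CPM, and the highest single gene was at 0.43. Among genes raised at least 3-fold in the same way, the median was -0.09, below 0. Intervals excluded equality for 16 higher and 12 lower genes, against 13.6% and 11.0% of all genes, shares that are not matched for level. GC-adjusted, the numbers were 13 and 15, against 7.22% and 6.96%, and the median was -0.02. Beyond 0.32, 3 were higher and 2 lower, and 0 reached 1.5-fold.

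The 31 of these 66 genes with less than 50% GC had a median ratio of -0.05, and 18 of them were below 0. The 35 genes with at least 50% GC had a median of 0.10, and 23 of them were above 0. Promoter sequences were found for 56 of the 66 genes, and 8 held at least 1 of the 3 motifs, against 1.24% of 9308 genes with at least 5 CPM and a promoter. The 8 genes had a median ratio of -0.02 and the 48 without a match 0.01. CALR, CRELD2, HSP90B1, HSPA5 and TRIM5 held the ER stress element, and HERPUD1, HYOU1 and SDF2L1 ERSE-II. HYOU1 was the one with the unfolded protein response element.

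HMGCS1, IDI1, SEL1L and EIF2AK3, described above, were among the lowest of the 66 genes. At the high end was SLC22A31, a solute carrier gene, at 18.7 CPM in M67V and 13.85 CPM in WT, against 3.39 to 4.02 CPM in the other 4 libraries (0.43, 0.18 to 0.69). DLX3, a homeobox gene, stood at 24.7 CPM in M67V and 19.6 CPM in WT, against 0.476 to 2.13 CPM elsewhere (0.33, 0.11 to 0.55). CORO1A, an actin-binding coronin, stood at 33.8 CPM in M67V and 26.9 CPM in WT, against 4.79 to 5.91 CPM elsewhere (0.32, 0.14 to 0.51). TLL2, a tolloid-like protease gene, stood at 20.3 CPM in M67V and 16.5 CPM in WT, against 1.65 to 3.33 CPM elsewhere (0.30, 0.06 to 0.54). SLC22A31, DLX3, CORO1A and TLL2 stayed above 0 after GC adjustment, at 0.31, 0.26, 0.22 and 0.29, with intervals that excluded equality.

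Among genes with at least 20 CPM in M67V or WT that overlap no expressed gene, the highest ratio after FAM219A belonged to FDX1L, a mitochondrial ferredoxin gene, at 22.3 CPM in M67V and 15.7 CPM in WT (0.50, 0.27 to 0.75), with an adjusted ratio of 0.41. KAT8, a histone H4 acetyltransferase, stood at 35.3 CPM in M67V and 25.8 CPM in WT (0.45, 0.26 to 0.64), with an adjusted ratio of 0.38. The other 4 libraries held 29.4 to 34.6 CPM of KAT8, so WT lay below their range and M67V above it. CAMKV, a kinase-like vesicle protein gene, stood at 51.04 CPM in M67V and 38.2 CPM in WT, against 23.96 to 27.35 CPM in the other 4 libraries (0.42, 0.26 to 0.57). ISOC2 stood at 98.5 CPM in M67V and 73.8 CPM in WT, against 46.3 to 60.3 CPM in the other 4 libraries (0.42, 0.31 to 0.53). Adjusted, CAMKV was at 0.33 and ISOC2 at 0.31. For CAMKV and ISOC2 both libraries lay above the other 4, and M67V above WT. ATF6, OGDHL, TBCB, DUSP9 and WDR45 completed the 10 highest, at 0.37 to 0.39. The adjusted ratios of the last 4 lay between 0.26 and 0.31, and their transcripts had 57.8% to 65.6% GC.

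At the low end, after C9orf24, was RHOC, a small GTPase gene, at 24.6 CPM in M67V and 33.4 CPM in WT (-0.44, -0.63 to -0.25). The other 4 libraries spread from 27.9 to 41.1 CPM, with 41.1 CPM in ex8-14del and 40.4 CPM in non-transfected cells, so WT lay within their range and M67V below it. RHOC had 57.7% GC and lay further from equality after adjustment, at -0.51. HMGCS1 came next, followed by CEP120, C3orf14, ELAVL2, ZNF84, MTBP, C21orf91 and UBE2Q2, all between -0.38 and -0.35. These 7 transcripts had 33.5% to 42.2% GC, and their adjusted ratios lay between -0.30 and -0.24. CEP120, a centriole assembly gene, stood at 30.03 CPM in M67V and 39.1 CPM in WT, against 30.3 to 33.3 CPM in the other 4 libraries.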

How the data were processed

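RNA of 6 HEK293T cultures was sequenced, per the labels' protocols, with 1 library per genotype label. Estimated counts were made by the authors and deposited per gene symbol, without normalization; the submitters' processing notes name GRCh37.p13 and DESeq. The aligner, counting program and strand setting: not given in the sources used here. Genes without reads held 0.028, which was set to 0. Counts were rounded, 28 rows named as dates (0.215% to 0.231% of counts) were left out, and rows sharing a symbol were summed, leaving 37993 symbols. A second count table of 6 columns was not used, since 1 column matches no label, and the authors' comparison sheets were not used.

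Library sizes were scaled with TMM factors of 0.985 to 1.01, computed in R 4.3.3 with edgeR 4.0.16. Log2 ratios used a prior count of 2 and exact conditional binomial intervals. PCR reads are not independent molecules, so intervals and floors cover counting error only. The floor of 3 counts was 0.177 to 0.189 CPM. Counts of genes needed 5 CPM in M67V or WT, lists 1 CPM. The ratio and GC steps were tested on simulated data. Further steps ran in Python 3.11.15 with scipy 1.17.1, pandas 2.3.3, numpy 2.4.6 and, for figures, matplotlib 3.10.9.

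GC content and length came from the longest protein-coding transcript in GENCODE 29, found for 99.2% of genes with at least 5 CPM. The GC trend was the median of 20 bins of genes with at least 20 CPM. Overlaps and neighbours came from RefSeq spans on GRCh38.p14, a build other than the authors', matched for 99.3% of genes, of which 20.4% overlap an expressed gene. For that reason no gene coordinates are given except beside a printed sequence.

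The 16 gene lists, the comparison and the rule for named genes were chosen with earlier results of these data known. The rule takes ATF6, HSPA5, HMGCS1 and PDIA4, every gene at 2-fold, the 10 highest and 10 lowest ratios without overlap at 20 CPM or more, up to 4 members per list, and the 5 highest and 5 lowest of the 66 raised genes. Other list members and genes with a motif match were added to these with their values known, and 1 gene that the rule takes is not reported here. Alternatives were library totals, DESeq2 1.42.0 size factors, prior counts of 0.5 and 5, other filters and thresholds, unrounded counts, and GC adjustment.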

Additional observations from a re-analysis of the deposited data

How the results depend on the processing

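Of the values of 97 named genes, recomputed as log2 ratios of M67V over WT with library totals, DESeq2 size factors, prior counts of 0.5 and 5, and unrounded counts, all 485 kept their direction. Apart from HSPE1-MOB4 and NME1-NME2, they moved by less than their counting interval. Both genes had no count in M67V, so their intervals have no lower end and their ratios depend on the prior count. With prior counts of 0.5, 2 and 5, HSPE1-MOB4 stood at -8.69, -6.70 and -5.40. NME1-NME2 stood at -8.18, -6.19 and -4.90. The 16 list medians and the median of the 66 raised genes also moved by less than the counting intervals of their members under each alternative tried for them, but the median of the raised genes, 0.01 as reported, turned to -0.0866 for genes raised at least 3-fold and to -0.0182 GC-adjusted. The number of genes 2-fold higher in M67V was 7 and of genes lower 8. Without a filter on CPM these were 53 and 63, without overlapping genes 2 and 1, and at a threshold of 1.5-fold 20 and 19. They stayed within 1.5 times of 7 and 8 under the other alternatives tried. Under GC adjustment, added after seeing the data, 18 of the 97 named genes moved by more than their counting interval, and the intervals of 26 came to hold equality. JUN, at 0.06 as measured, stood at -0.0021, on the other side of equality. P4HB, which is outside that rule, crossed likewise. No paired analysis was possible because each group has 1 library. With 1 library a side, no left-out replicate could be tried, and cultures and conditions cannot be told apart. Genes near 5 CPM have wide intervals, as for LRRC39 on 46 counts in M67V and 108 in WT.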

Other observations

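After GC adjustment the highest ratio outside the genes described above, among genes with at least 20 CPM and no annotated overlap, was that of HMGN5, a nucleosome-binding protein gene. It stood at 108.9 CPM in M67V and 87.1 CPM in WT, against 111 CPM in N267star, 104 CPM in ex2-3del, 89.5 CPM in ex8-14del and 102 CPM in non-transfected cells, with an adjusted log2 ratio of 0.43. ABCA5, a lipid transporter gene, stood at 40.3 CPM in M67V and 33.4 CPM in WT, against 16.5 to 23.3 CPM in the other 4 libraries, with an adjusted ratio of 0.38. PLBD2, a lysosomal phospholipase-like gene, stood at 106.7 CPM in M67V and 131 CPM in WT, against 109.9 to 114 CPM in the other 4 libraries. Its adjusted ratio was -0.36, and WT lay above the range of the other 4 libraries and M67V below it. RPL37, a ribosomal protein gene, stood at 257.5 CPM in M67V and 209 CPM in WT, against 233 to 246 CPM in the other 4 libraries, with an adjusted ratio of 0.34. These 4 genes were chosen after their values were seen.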
